A study of Mus musculus with 42 samples.

Results

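Olfr1015 and Olfr1016 are neighbouring olfactory receptor genes on mouse chromosome 2. They are 2 of the 1170 olfactory receptor genes, and of the 44674 genes in all, for which reads were counted. Both were named with earlier results of the same libraries in view, namely their ratio of pulldown to input in each odour group, so their levels, ratios and fold changes are given as a description, with no test. The main olfactory epithelium of male C57BL/6NCrl mice, 8 to 12 weeks old, was taken after 1 h in which the animals met either no odour or that of 1 of 3 diets, NCD (normal chow diet), BFD (a bacon-flavoured diet) or HFD (a lard-based high-fat diet). The labels name no transgene or other allele in any group. Tissue from 4 epithelia was combined into each pool, so that a value belongs to a pool and not to a mouse. There were 6 pools exposed to NCD odour and 5 pools in each of the other groups. Each of the 21 pools gave 1 input library of the whole tissue and 1 pulldown library, the latter from immunoprecipitation of ribosomes whose protein S6 was phosphorylated.

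Olfactory receptors are G protein-coupled receptors in the cilia of olfactory sensory neurons, and each mature neuron expresses a single receptor gene out of the large family, from one of its alleles. The genes lie in clusters, where neighbours are often relatives that arose by duplication, yet each is chosen in a different set of neurons. When an odour activates a neuron, kinases phosphorylate S6 in its ribosomes, so that an antibody against the phosphorylated form recovers the messenger RNA of recently active neurons. A receptor whose neurons were active is then enriched in the pulldown relative to the input. In whole tissue, fewer neurons that express a receptor and less receptor RNA in each neuron cannot be told apart.

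Olfr1015 (ENSMUSG00000033850) spans chr2:85782017-85787812 of GRCm38 on the forward strand, and Olfr1016 (ENSMUSG00000075209) spans chr2:85797618-85802544 on the reverse strand. Their 3′ ends face each other across a gap of 9805 bases in which the annotation (GENCODE release M21) places no other gene. Both are protein coding, and in each the whole coding sequence lies in 1 exon. That of Olfr1015 has 936 bases at chr2:85785513-85786448, and that of Olfr1016 has 927 bases at chr2:85799342-85800268. Longer isoforms of both genes begin with a short upstream non-coding exon, 76 to 80 bases in Olfr1015 and 29 bases in Olfr1016. The annotated exons of the isoforms cover 2483 bases of Olfr1015 and 2738 bases of Olfr1016, the lengths used for levels per kilobase (kb).

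The coding sequences of the pair were 62.1% identical, and each gene ranked 5th for the other among 1079 receptors compared. The closest relative of Olfr1015 was Olfr1006 (83.1% identity), and that of Olfr1016 was Olfr1014 (79.8%), both on the same chromosome. Over all receptors, the median identity was 56.4% to Olfr1015 and 56.3% to Olfr1016. The 150 bases in which the pair was most alike are shown with the same stretch of the closest relative of each, because the pair sits side by side but is less alike than each is to its own relative. Sequences are 5′ to 3′ on the coding strand. Capitals in Olfr1015 and Olfr1016 mark the 47 bases at which they differ from each other, capitals in Olfr1006 mark its 21 differences from Olfr1015, and capitals in Olfr1014 mark its 19 differences from Olfr1016. The stretches lie at chr2:85786183-85786332 (Olfr1015, forward strand), chr2:85799452-85799601 (Olfr1016, reverse strand), chr2:85674330-85674479 (Olfr1006, reverse strand) and chr2:85777253-85777402 (Olfr1014, forward strand).
Olfr1015: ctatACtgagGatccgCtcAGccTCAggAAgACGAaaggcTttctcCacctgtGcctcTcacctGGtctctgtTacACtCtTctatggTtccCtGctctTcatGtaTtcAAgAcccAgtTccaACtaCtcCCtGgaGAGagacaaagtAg
Olfr1016: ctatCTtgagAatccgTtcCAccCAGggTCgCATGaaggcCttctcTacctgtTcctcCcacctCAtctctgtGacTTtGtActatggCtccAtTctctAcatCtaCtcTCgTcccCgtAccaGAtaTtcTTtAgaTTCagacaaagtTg
Olfr1006: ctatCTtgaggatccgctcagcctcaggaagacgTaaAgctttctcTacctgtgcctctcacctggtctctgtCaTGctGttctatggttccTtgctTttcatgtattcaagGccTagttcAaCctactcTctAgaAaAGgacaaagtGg
Olfr1014: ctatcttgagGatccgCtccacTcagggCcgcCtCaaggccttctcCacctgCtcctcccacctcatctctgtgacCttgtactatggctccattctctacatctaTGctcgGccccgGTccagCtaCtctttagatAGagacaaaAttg

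Reads of the pair could be told apart. No stretch of 31 bases occurred in transcripts of both genes. Of 2481 such words in Olfr1015, 3 (0.121%) occurred in another gene, all in Olfr1006. Of 2705 words in Olfr1016, 50 (1.85%) occurred elsewhere, led by Olfr1012 with 19 and Olfr1014 with 14. All 42 counts of Olfr1015 were whole numbers, whereas 5 of the 42 counts of Olfr1016 were not, since the authors' estimation shares reads that match several genes.

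The libraries held 24839380 to 36781440 counts each. The pair gave 42 to 381 counts for Olfr1015 and 27 to 179 for Olfr1016 in a library, and counting error alone at the mean count of a group was 5.89% to 10.5% for Olfr1015 and 9.02% to 14.5% for Olfr1016 in the pulldowns. Markers of mature sensory neurons (Omp, Cnga2, Adcy3, Gnal and Stoml3), the cells that express receptors, were all detected and summed to between 13772 and 17363 CPM (counts scaled to a common library size) in the inputs. In the pulldowns their sum ran from 14546 to 18190 CPM in the pools without odour. It was 19516 to 22110 CPM for NCD, 16587 to 22773 CPM for BFD and 17628 to 20590 CPM for HFD. Every list of markers of other cell types (immature neurons, basal, supporting, microvillous, red blood and bulb cells, and neutrophils) had all of its 5 genes above 0. The share of counts on ribosomal RNA and similar genes was 14.6% to 28.5% in the pulldowns without odour and 10.7% to 21.7% in those with an odour. In the inputs the share was 21.7% to 32.2% without odour and 9.75% to 21.9% with an odour, so it largely went with the lack of odour.

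In the inputs, the RNA of Olfr1015 lay at similar levels in every group. Without odour its input CPM was 6.69, 6.38, 8.01, 9.76 and 10.2 in pools 1, 2, 3, 4 and 6. With NCD odour the input CPM ran from 7.43 to 9.20 with a median of 8.24. With BFD odour it was 7.50, 7.20, 7.86, 9.27 and 9.18, and with HFD odour 6.20, 9.80, 9.07, 8.83 and 8.50 in pools 1, 2, 3, 5 and 6. These inputs overlapped between all groups, and their means lay between 8.20 and 8.48 CPM.

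In the pulldowns, by contrast, Olfr1015 was higher in steps from no odour through NCD and BFD to HFD. Its pulldown CPM without odour was 2.28, 1.86, 3.15, 4.31 and 5.14. With NCD odour it ran from 4.65 to 6.27 with a median of 5.30, with BFD odour it was 6.31, 6.42, 5.73, 7.71 and 8.47, and with HFD odour 8.25, 10.0, 10.1, 9.22 and 7.45. All HFD and BFD pools exceeded the highest pool without odour, and the HFD pools also lay above every NCD pool. Neighbours in this order overlapped: 4 of 6 NCD pools exceeded all pools without odour, 4 of 5 BFD pools exceeded all NCD pools, and 3 of 5 HFD pools exceeded all BFD pools. The share of other receptors whose pulldowns part in this way is not given, so nothing is read from it. Means were 3.35 ± 1.37 CPM without odour (SD, n = 5), 5.32 ± 0.550 with NCD (n = 6), 6.93 ± 1.12 with BFD (n = 5) and 9.00 ± 1.14 with HFD odour (n = 5). The median of 908 receptors with enough counts was also higher in this order, at 0.298, 0.358, 0.375 and 0.387 CPM per kb. Olfr1015 stood at 1.35, 2.14, 2.79 and 3.63 CPM per kb.

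Olfr1016 was less abundant and followed another order. Its input CPM without odour was 3.52, 2.74, 3.22, 4.21 and 4.09 in pools 1, 2, 3, 4 and 6. With NCD odour the inputs ran from 3.15 to 4.64 with a median of 3.88, with BFD odour they were 2.84, 3.45, 3.57, 4.62 and 3.46, and with HFD odour 4.00, 5.30, 4.08, 3.76 and 3.80. The inputs of Olfr1016 overlapped between all groups, with means of 3.56 to 4.19 CPM, and the highest single value was pool 2 of HFD odour.

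The Olfr1016 pulldowns were high with NCD and BFD odour and low without odour and with HFD odour. Pulldown CPM was 1.16, 1.68, 1.10, 2.14 and 2.74 without odour, and 1.87, 1.92, 1.97, 1.77 and 2.29 with HFD odour. It ran from 2.62 to 4.40 with a median of 3.42 with NCD odour, and was 3.13, 3.88, 4.07, 4.62 and 4.79 with BFD odour. All HFD values fell inside the range of the pools without odour and below every NCD and BFD pool. Of the 6 NCD pools, 5 exceeded all pools without odour, and NCD and BFD pools overlapped. Here too the share of other receptors that part in this way is not given, and nothing is read from it. Means were 1.77 ± 0.690 CPM without odour (SD, n = 5), 1.96 ± 0.197 with HFD (n = 5), 3.48 ± 0.637 with NCD (n = 6) and 4.10 ± 0.661 with BFD odour (n = 5).

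**Figure D1:**
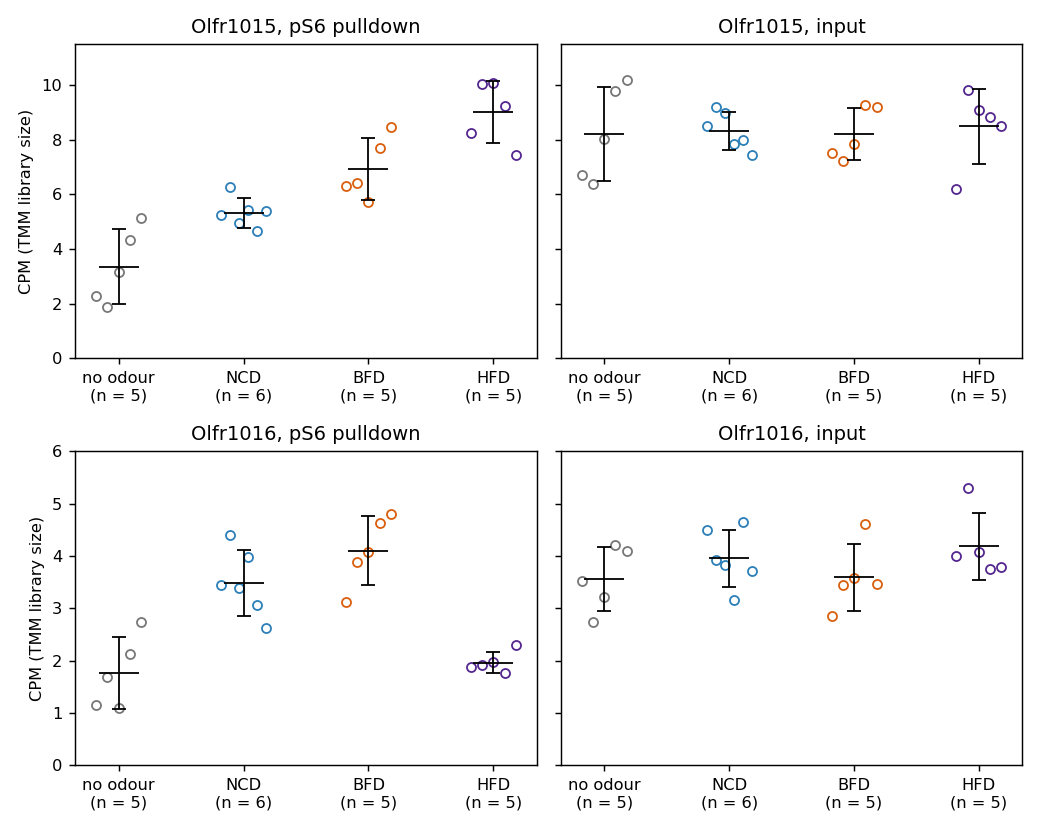
CPM of Olfr1015 (upper row) and Olfr1016 (lower row) in pulldown (left) and input (right) libraries, 1 circle for each pool, with horizontal marks for the mean and bars for the SD. Olfr1015 pulldowns go from a mean of 3.35 CPM without odour to 9.00 with HFD odour, Olfr1016 pulldowns with HFD odour (mean 1.96) sit at the level without odour (1.77), and the inputs overlap throughout.

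Setting each pulldown against the input of its own pool gave the same contrast. The log2 ratio of pulldown to input CPM of Olfr1015 was −1.53, −1.74, −1.33, −1.17 and −0.97 without odour. It ran from −0.85 to −0.46 with a median of −0.62 with NCD odour, was −0.25, −0.16, −0.45, −0.26 and −0.12 with BFD odour, and was 0.41, 0.03, 0.15, 0.06 and −0.19 with HFD odour. No odour, NCD and BFD pools did not overlap with each other in this ratio, and 4 of 5 HFD pools lay above every BFD pool, the exception being pool 6. In linear terms, pulldown over input averaged 0.395 ± 0.084 without odour (SD, n = 5), 0.641 ± 0.068 with NCD (n = 6), 0.843 ± 0.074 with BFD (n = 5) and 1.08 ± 0.166 with HFD odour (n = 5).

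For Olfr1016 the log2 ratio was −1.55, −0.68, −1.49, −0.96 and −0.56 without odour and −1.07, −1.43, −1.03, −1.06 and −0.71 with HFD odour. With NCD odour it ran from −0.59 to 0.33 with a median of −0.28, and with BFD odour it was 0.13, 0.17, 0.19, 0.00 and 0.46. All BFD pools and 5 of 6 NCD pools exceeded the highest pool without odour, and no HFD pool did. The HFD pools lay below every NCD and every BFD pool, while NCD and BFD pools overlapped. Pulldown over input averaged 0.493 ± 0.155 without odour (SD, n = 5), 0.477 ± 0.086 with HFD (n = 5), 0.900 ± 0.243 with NCD (n = 6) and 1.15 ± 0.143 with BFD odour (n = 5).

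For scale, the log2 ratio lay above every pool without odour for 7.16% of the 908 receptors tested with NCD odour, for 7.05% with BFD odour and for 8.7% with HFD odour. HFD pools lay above all NCD pools for 1.54% of receptors and below all NCD pools for 1.54%. They lay below all BFD pools for 2.53%, and BFD pools lay above all NCD pools for 0.771%. The pair was named from these same ratios, so nothing is read from its place beside these shares. No such shares are given for the pulldown CPM above, and nothing is read from how its groups overlap.

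**Figure D2:**
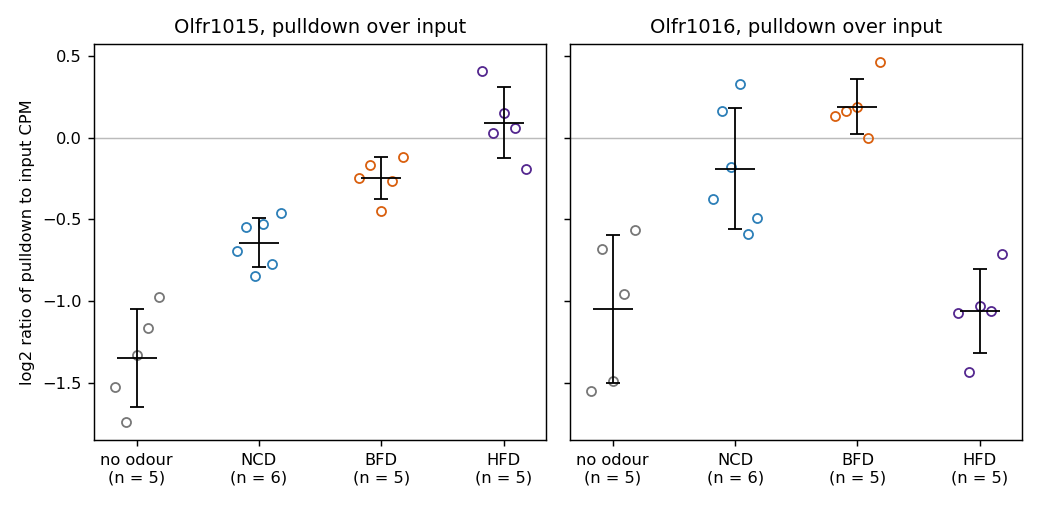
Log2 ratio of pulldown to input CPM of Olfr1015 (left) and Olfr1016 (right), 1 circle for each pool, with the mean and the SD of each group and a line at equal pulldown and input. The mean ratio of Olfr1015 is highest with HFD odour (0.09), whereas that of Olfr1016 is highest with BFD odour (0.19) and stands at −1.06 with HFD odour and −1.05 without odour.

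The fit over all genes put sizes on these differences. All 3 odours were compared with the same 5 pools without odour. The log2 fold change of pulldown/input of Olfr1015 over no odour was 0.68 (SE 0.14) with NCD, 1.08 (SE 0.14) with BFD and 1.42 (SE 0.14) with HFD odour, the last being 2.67-fold. For Olfr1016 it was 0.85 (SE 0.21) with NCD, 1.23 (SE 0.22) with BFD and −0.044 (SE 0.22) with HFD odour. The sign of the last value turned between analyses, which gave −0.17 to 0.15, smaller in size than its SE of 0.22. The median of the 908 receptors tested was 0.23 with NCD, 0.29 with BFD and 0.27 with HFD odour. Between odours, HFD over BFD was 0.34 (SE 0.14) for Olfr1015 and −1.28 (SE 0.21) for Olfr1016, and HFD over NCD was 0.74 (SE 0.13) and −0.90 (SE 0.20). BFD over NCD was alike in both, 0.40 (SE 0.13) and 0.38 (SE 0.20).

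Within single pools, the pair parted with HFD odour. The pulldown level of Olfr1015 in CPM per kb, divided by that of Olfr1016, was 4.87, 5.76, 5.64, 5.75 and 3.59 in HFD pools 1, 2, 3, 5 and 6. It was 2.16, 1.22, 3.15, 2.22 and 2.07 in the pools without odour, 2.23, 1.82, 1.55, 1.84 and 1.95 with BFD odour, and from 1.50 to 2.26 with a median of 1.64 with NCD odour. Every HFD pool thus exceeded every other pool. The same quotient in the inputs was 1.71 to 2.59 with HFD odour and 1.90 to 2.93 in the other pools, which overlapped. No share over other pairs of receptors is given, and the pair was named from these values, so nothing is read from the parting.

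**Figure D3:**
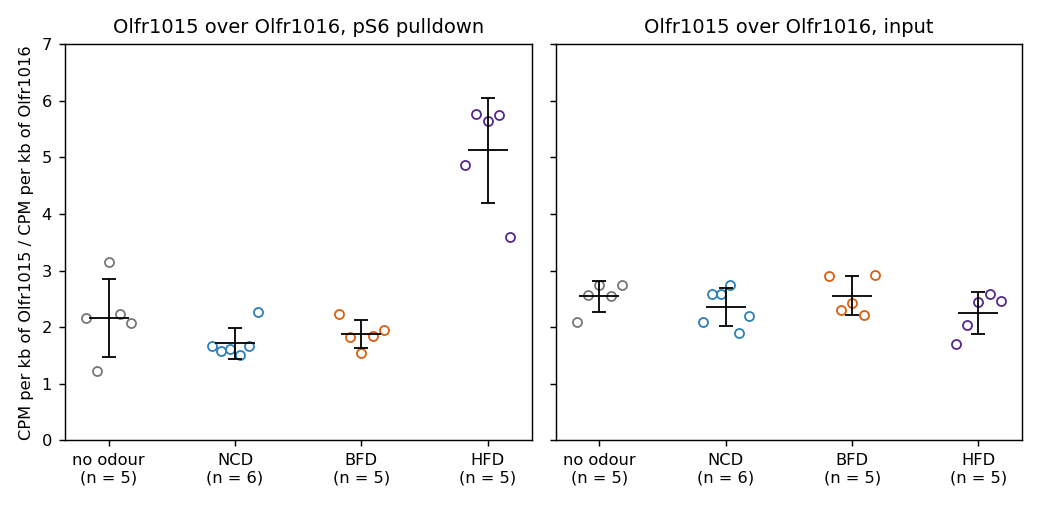
CPM per kb of Olfr1015 divided by CPM per kb of Olfr1016 in the same library, for pulldowns (left) and inputs (right), 1 circle for each pool with the mean and the SD. With HFD odour the pulldown quotients are 3.59 to 5.76, above the highest of the other groups (3.15), and the input quotients of all groups overlap.

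Among the 908 receptors tested, both genes were well above the middle of the family in the input. Per kb of exon, the mean input level of Olfr1015 was 3.30 to 3.42 CPM per kb, rank 40 to 44 in the 4 groups, and that of Olfr1016 was 1.30 to 1.53, rank 127 to 147. The median receptor was at 0.342 to 0.365 CPM per kb. In the pulldowns Olfr1015 stood at rank 153 without odour, against 127 for NCD, 101 for BFD and 75 for HFD. Olfr1016 stood at rank 287 without odour, at 191 for NCD, 172 for BFD and 322 for HFD.

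Without odour, both stood near the bottom of the family in the ratio of pulldown to input. Olfr1015 ranked 865 of 908 with a mean log2 ratio of −1.35 ± 0.30 (SD, n = 5) and Olfr1016 ranked 796 with −1.05 ± 0.45, where the median receptor had −0.18. With HFD odour Olfr1015 ranked 429, close to the median receptor (0.05), and Olfr1016 ranked 843. In the log2 fold change over no odour, Olfr1015 ranked 37 and Olfr1016 672 with HFD odour, against 90 and 56 with BFD odour and 190 and 130 with NCD odour.

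The ribosomal RNA share varied between the pools without odour, which all fold changes share. In pools 2, 1, 3, 4 and 6 it was 28.5%, 28.3%, 26.8%, 21.2% and 14.6% of the pulldown counts, and the log2 ratio of Olfr1015 was −1.74, −1.53, −1.33, −1.17 and −0.97 in the same order. The ratio of Olfr1016 in that order was −0.68, −1.55, −1.49, −0.96 and −0.56. In the inputs the shares were 32.2%, 27.1%, 27.8%, 31.6% and 21.7% in that order and did not fall steadily. With NCD odour, pool 6 had the highest pulldown share (21.7%) and the highest ratio of Olfr1015 (−0.46). With HFD odour, pool 6 had the highest share (18.2%) and the lowest ratio (−0.19). With BFD odour, pool 5 had the lowest share (12.8%) and the highest ratio (−0.12). With the share of each library as a covariate, the log2 fold changes of Olfr1015 were 0.73 with NCD, 1.26 with BFD and 1.45 with HFD odour, and those of Olfr1016 were 0.93, 1.56 and 0.01. The summed mature neuron markers were also higher in most pulldowns with odour, and the part of that difference in the ratios of the pair was not tested.

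The nearest receptors on each side of the pair were examined in the same fit. The 5 before Olfr1015 were Olfr1008, Olfr1009, Olfr1012, Olfr1013 and Olfr1014, and the 5 after Olfr1016 were Olfr1017-ps1, Olfr1018, Olfr1019, Olfr1020 and Olfr1021-ps1. All are olfactory receptor genes or pseudogenes, and 8 of the 10 had enough counts to be tested, Olfr1008 and Olfr1017-ps1 being near 0. In edgeR's quasi-likelihood test at an adjusted p-value under 0.001, 0 of 8 were called in either direction with NCD, BFD or HFD odour. Over all 21168 genes, 0.359% were called higher and 0.165% lower with NCD odour, 2.47% and 1.32% with BFD odour, and 0.699% and 0.52% with HFD odour. At an unadjusted p-value under 0.05, 1, 2 and 1 of the 8 passed with NCD, BFD and HFD odour. The share of all genes at that cut is not given here, so nothing is read from these counts. DESeq2 with the same design called 1 of the 8, Olfr1013 with BFD odour. Their median log2 fold change was 0.18 with NCD, 0.34 with BFD and 0.31 with HFD odour, where the median of all receptors was 0.23, 0.29 and 0.27 and that of all genes lay between −0.01 and 0.00.

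Olfr1013 (chr2:85767098-85774649, forward strand), the second gene before Olfr1015 and 78.5% identical to Olfr1016 in coding sequence, came closest to the threshold. Its log2 ratio was −1.18 to −0.41 in the pools without odour. For NCD it was −0.68 to 0.17, for BFD 0.00 to 0.75 and for HFD −0.70 to 0.09. Only the BFD pools lay above every pool without odour. In edgeR's test its fold change on the log2 scale came to 0.62 (SE 0.21, adjusted p = 0.0488) with NCD, 1.02 (SE 0.21, adjusted p = 0.00139) with BFD and 0.40 (SE 0.22, adjusted p = 0.215) with HFD odour. Between HFD and BFD odour it differed by −0.61 (SE 0.21), which did not pass (edgeR adjusted p = 0.451).

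Olfr1014 (chr2:85772713-85778974, forward strand), the gene next to Olfr1015 and the closest relative of Olfr1016, had fold changes near 0, at −0.02 (SE 0.30), 0.28 (SE 0.31) and −0.09 (SE 0.31) on the log2 scale with NCD, BFD and HFD odour (edgeR adjusted p of 0.588 to 0.981). Olfr1018 (chr2:85818479-85824221, forward strand), the first tested gene after Olfr1016, was far more abundant in the pulldown than in the input in all groups, with mean log2 ratios of 1.75 without odour and 1.81 to 1.98 with an odour. Its fold changes were 0.18, 0.06 and 0.23 with NCD, BFD and HFD odour, none past the threshold (edgeR adjusted p of 0.449 to 0.866). Olfr1012 had 0.19, 0.71 and 0.59 (edgeR adjusted p = 0.633, 0.0237 and 0.0753). Olfr1009, Olfr1019, Olfr1020 and Olfr1021-ps1 had values from −0.54 to 1.15, with SEs of 0.25 to 0.75 and no adjusted p-value under 0.28 in edgeR's test.

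**Figure D4:**
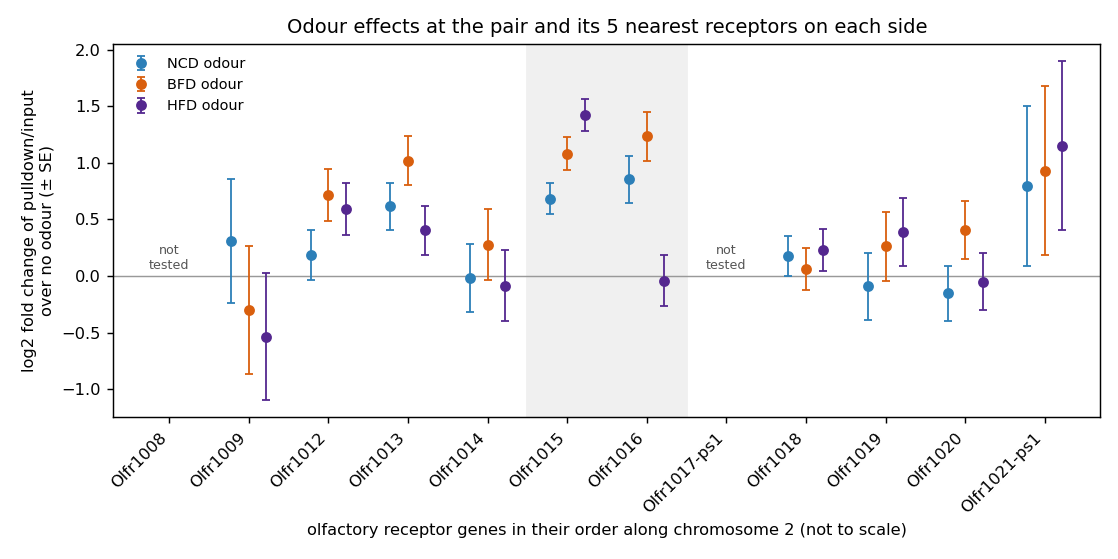
Log2 fold change of pulldown/input over no odour (points, with bars for the SE) for Olfr1015 and Olfr1016 (shaded) and the 5 nearest olfactory receptor genes on each side, in chromosomal order and not to scale, for NCD, BFD and HFD odour. The HFD points of the pair lie apart at 1.42 and −0.044, and 0 of the 8 neighbours tested passed the threshold.

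In the inputs, the tissue RNA of the flanking receptors was also compared between odour groups. In edgeR's quasi-likelihood test on the input libraries, 0 of 8 were called with any odour, 0 had an unadjusted p-value under 0.05, and DESeq2 called 0. Over all 20451 genes, 0.572% were called higher and 0.425% lower with NCD odour, 5.41% and 8.34% with BFD odour, and 0.636% and 0.328% with HFD odour. The median log2 difference of the 8 was 0.02, −0.08 and 0.02 with NCD, BFD and HFD odour.

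Receptors that share 31-base words with the pair were taken next. They were Olfr1006 for Olfr1015, and Olfr1012, Olfr1014, Olfr64, Olfr285 and Olfr1152 for Olfr1016, the last of them one of several tied in shared words. Olfr64, Olfr285 and Olfr1152 share only 9, 7 and 6 words, as few as genes outside the family such as Csn2 (8) and Insr (7). Sharing these words thus does not make them relatives of Olfr1016. In edgeR's test 0 of the 6 receptors passed the threshold with any odour, as did 0 of 6 in DESeq2 with the same design. At an unadjusted p-value under 0.05 in edgeR, 2, 3 and 1 of them passed with NCD, BFD and HFD odour. The share of all genes at that cut is not given here, so nothing is read from these counts. The median log2 fold change of the 6 was 0.39, 0.53 and 0.44. Olfr1006, which shares the largest part of its coding sequence with Olfr1015, had 0.60 (SE 0.20, edgeR adjusted p = 0.0441) with NCD, 0.65 (SE 0.20, adjusted p = 0.0234) with BFD and 0.28 (SE 0.20, adjusted p = 0.378) with HFD odour. Its HFD pools had a log2 ratio of −1.08 to −0.53, against −0.19 to 0.41 for Olfr1015. Olfr1152 had 1.06, 1.30 and 0.73 (edgeR adjusted p = 0.0446, 0.0104 and 0.189). Chosen by identity of the coding sequence, a choice made after the values were seen, the relatives were Olfr1006, Olfr1012, Olfr1013, Olfr1014 and Olfr473, of which 0 of 5 passed.

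The receptors whose log2 ratio ran most like that of each gene over the 21 pools were different for the pair. For Olfr1015 they were Olfr597, Olfr983, Olfr557, Olfr599 and Olfr475-ps1, with Pearson's r of 0.84 to 0.80. For Olfr1016 they were Olfr1354, Olfr1275, Olfr693, Olfr466 and Olfr1278, with r of 0.83 to 0.76. These values describe likeness over pools that include the odour groups, carry no test, and rest on ratios from shared libraries. Between Olfr1015 and Olfr1016 themselves r was 0.20, rank 447 of 907 for Olfr1015 and 337 for Olfr1016, where the median receptor had 0.20 and 0.12.

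The log2 fold changes of these receptors follow from how they were picked. Of those like Olfr1015, Olfr597 had 1.29 (SE 0.24), 1.51 (SE 0.25) and 1.80 (SE 0.25) with NCD, BFD and HFD odour. Olfr557 had 1.10, 1.70 and 1.94 and Olfr599 had 1.46, 1.50 and 1.93, so that HFD was highest in all 3, as in Olfr983 (0.56, 0.89 and 1.01). Olfr475-ps1 was highest with BFD odour (0.95, 1.20 and 1.10). Of those like Olfr1016, Olfr1354 had 1.19 (SE 0.18), 1.20 (SE 0.19) and −0.27 (SE 0.19), and Olfr1275 had 2.06, 1.96 and 0.27. Olfr693 had 0.53, 0.68 and −0.07, Olfr466 had 1.26, 1.36 and 0.44, and Olfr1278 had 1.64, 1.52 and 0.88, each lowest with HFD odour.

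Pools of one group also differ from each other. The pair was named from its values in these pools, so the likeness of the spread is described with no test. With group means removed, Pearson's r between the log2 input CPM of Olfr1015 and that of Olfr1016 over the 21 pools was 0.58 and Spearman's rho was 0.60. Both values of a pool come from 1 library. Without the 2 pools farthest from the median of Olfr1015, which were pool 2 without odour and pool 1 of HFD odour, r was 0.55. Over 208 other neighbouring pairs of tested receptors on chromosome 2, at most 100 kb apart, the median r was 0.10. The median over all pairs of tested receptors was 0.07. Both genes of the pair lay well above the median receptor in input level, so these medians are not a like comparison. Nothing is read from them.

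In the log2 pulldown CPM, r was 0.57 and rho was 0.51. Without pools 2 and 6 of no odour r was 0.55, and without pool 2 of no odour alone it was 0.72. In the log2 ratio of pulldown to input, r was 0.16 and rho was 0.20. The former was 0.20 without the 2 farthest pools, and −0.036 without pool 6 of no odour.

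**Figure D5:**
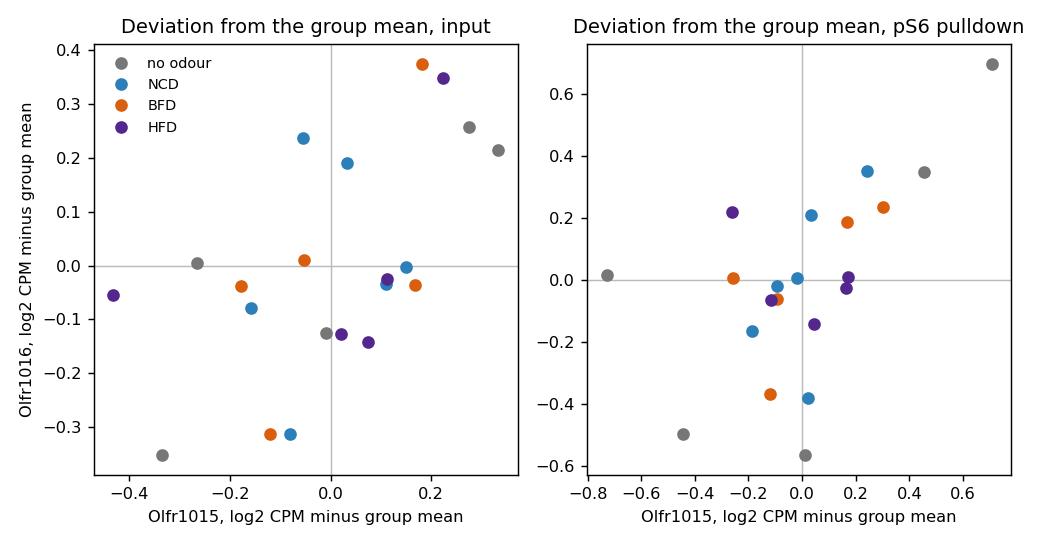
Deviation of Olfr1016 from its group mean against that of Olfr1015, in log2 CPM, for the inputs (left) and pulldowns (right), 1 point for each of the 21 pools in the colour of its odour group. Pearson's r is 0.58 in the inputs and 0.57 in the pulldowns, given as a description with no test.

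Behind every receptor of this family runs one cascade. A list of 16 genes was tested in the same fit, most of them from that cascade. Omp, Rtp1 and Rtp2 are on the list but are not steps of the cascade. With BFD odour, 2 of 16 rose past the threshold, where 2.47% of all genes were called higher. They were Gng13, a G protein gamma subunit, at 1.33 on the log2 scale (edgeR adjusted p = 0.000614, SE 0.24), and Omp, a marker of mature neurons, at 0.64 (edgeR adjusted p = 0.000189, SE 0.10). The count was 0 with a replicate block, with the compared groups only and when the share of ribosomal RNA was a covariate. With pulldown libraries only, the genes called higher with BFD odour were Cngb1, Ric8b and Stoml3, and not Gng13 or Omp. Leaving out a pool gave 0 to 4, with 0 without pool 2 or pool 3 of BFD odour. With NCD and HFD odour 0 of 16 were called by edgeR in either direction, and 7 had an unadjusted p-value under 0.05 in each. The share of all genes at that cut is not given here, so nothing is read from the count of 7. DESeq2 with the same design called 1 with either of these odours, Omp. The largest changes there were those of Gng13, 0.94 (SE 0.22, edgeR adjusted p = 0.0107) with NCD and 0.80 (SE 0.24, adjusted p = 0.0261) with HFD odour, and of Omp, 0.42 in both (edgeR adjusted p = 0.00789 and 0.00772). The median of the list was 0.04, 0.14 and 0.07 with NCD, BFD and HFD odour. Gnal and Adcy3, the G protein alpha subunit and the adenylyl cyclase that receptors act on, had values of −0.32 to −0.08 and did not pass.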

How the data were processed

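RNA was sequenced from 21 pools of main olfactory epithelium, each as a pS6 pulldown and an input library. The authors made libraries with a low-input kit that does not mark the strand. Salmon, run within nf-core's rnaseq workflow against GRCm38, gave the expected counts per gene that they deposited, which are not normalized; 30.9% of the values were not whole. The annotation release is not given in the sources used here, and names were taken from GENCODE M21; 556 genes without a name held 0.525% of the counts. All 90 pairs of libraries within a group differed by more than sampling noise, with a chi-square of at least 3.33 for each degree of freedom.

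Counts were rounded and genes kept by filterByExpr (minimum count 10), which left 21168 genes and 908 olfactory receptors. edgeR 4.0.16 (R 4.3.3) fitted a term for each pool, the pulldown and the pulldown by odour with TMM library sizes in a robust quasi-likelihood fit, so that an odour's effect is pulldown/input over that in pools without odour. Pools have a term because the methods take a pulldown and its input from the same tissue. SEs were taken as the absolute log2 fold change divided by the square root of the F statistic. P-values were two-sided and adjusted over all genes (Benjamini-Hochberg), with the study's threshold of 0.001. CPM used TMM library sizes, and log2 ratios used a prior count of 2. Ribosomal RNA shares included genes that resemble ribosomal RNA. Words of 31 bases and coding sequences (global alignment, match score 1, mismatch -1) came from the GENCODE transcripts. The fit was tested on simulated data. A planned permutation test of the correlation within the pair is not reported, since the pair was named from the same values.

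The genes and lists were chosen with earlier results of these data known. Named genes were the pair, the 5 nearest receptors on each side and the receptors sharing most words with each gene. Also named were the 5 receptors with the most alike ratios. Of the cascade list, those past the threshold or else the 2 with the largest change were named. The list by similarity had been set for protein identity; no protein table was used here, so shared words took its place. Alternatives were DESeq2 1.42.0 with that design or with the quotient of pulldown and input, other size factors, pulldown libraries only, other filters, scalings and prior counts, fits with and without terms for the pool or the replicate number, the compared groups only, the ribosomal RNA share as a covariate, an adjusted p-value under 0.05, and leaving out each pool in turn. The list by coding identity and that of 10 receptors on each side were added after the data were seen. The numbers of pools limit the precision, nothing in the labels names a library batch, and p-values measure the spread between pools.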

Additional observations from a re-analysis of the deposited data

Results flagged for a closer look

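Among 24 groups of values of the pair (input CPM, pulldown CPM and log2 ratio in 4 odour groups), 1 held a pool far from the others by Dixon's gap criterion, where chance marks about 1 group in 20. It was the input CPM of Olfr1016 with HFD odour, in which pool 2 had 5.30 CPM and the other 4 pools 3.76 to 4.08. The pulldown of the same pool was at 1.92 CPM, inside the range of its group, and its log2 ratio of −1.43 was the lowest of the HFD pools. Without pool 2 the mean input of Olfr1016 with HFD odour was 3.91 CPM and the log2 fold change of pulldown/input came to 0.057, against −0.044 with that pool.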

How the results depend on the processing

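Log2 fold changes of the pair kept their sign in every analysis except that of Olfr1016 with HFD odour, which ran from −0.17 to 0.15, both with positive and with negative values on leaving out a pool (−0.17 to 0.10). Leaving out a pool gave 1.34 to 1.53 for Olfr1015 with HFD odour, 1.02 to 1.19 with BFD and 0.59 to 0.79 with NCD odour, and 1.11 to 1.38 and 0.73 to 1.00 for Olfr1016 with BFD and NCD odour. The largest shift came when the share of ribosomal RNA entered as a covariate, with Olfr1016 with BFD odour at 1.56.

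Scaling without ribosomal RNA genes raised the CPM of Olfr1015 in the inputs to 10.1 (no odour), 10.3 (NCD), 10.3 (BFD) and 10.4 (HFD) and in the pulldowns to 6.18 (NCD), 8.07 (BFD) and 10.5 (HFD). That of Olfr1016 came to 4.40, 4.90, 4.50 and 5.16 in the inputs and to 4.77 (BFD) and 2.28 (HFD) in the pulldowns. Values that moved less are not listed, namely the pulldowns of both genes without odour and that of Olfr1016 with NCD odour. Nothing is therefore read from this scaling about differences between odour groups. CPM on total counts put the log2 ratio of Olfr1015 with BFD odour at −0.40.

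Among the flanking receptors, called genes with BFD odour came to 1 under DESeq2 with either design, without the filter and without pool 1 of BFD odour, each time Olfr1013, so that leaving out a pool gave 0 to 1. At an adjusted p-value under 0.05 they came to 1 with NCD and 2 with BFD odour, and the word-sharing receptors to 2 and 3.

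Of the cascade list, 1 gene was called with NCD odour under DESeq2 with either design and with the compared groups only, 3 with pulldown libraries only and 3 at an adjusted p-value under 0.05. With BFD odour the count of 2 went to 0 with the compared groups only and when the share of ribosomal RNA was a covariate, and it was 6 higher and 1 lower at an adjusted p-value under 0.05. Leaving out a pool gave 0 to 4, with 4 without pool 1 of BFD odour, 0 without its pool 2 or 3, and 1 without its pool 4 or 5 or without pool 2, 4 or 6 of no odour. With HFD odour 1 gene was called under DESeq2 with either design and with pulldown libraries only, and 2 higher and 1 lower at an adjusted p-value under 0.05. These changes were not traced to a cause.

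Replicate numbers did not pair the pools: deviations of the same number in different odour groups had a median correlation of 0.03 (−0.27 to 0.14 over 27 pairs), and 3 of 21 pools correlated best with their own number. The pulldown and input of one pool had a median correlation of 0.036 (−0.099 to 0.28 over 21 pools). That correlation thus does not show the pairing either. For Olfr1015 without odour, log2 input CPM deviated from its mean by −0.27, −0.33, −0.01, 0.28 and 0.33 in pools 1, 2, 3, 4 and 6. The pulldown deviated by −0.45, −0.73, 0.01, 0.46 and 0.71, much alike. With NCD odour they ran less alike, such as 0.11 in the input and −0.09 in the pulldown of pool 3. The pool term was taken from the methods. With the replicate block, the cascade count with BFD odour was 0, and no other count of calls changed by over 1.5 times.

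In the pulldowns, r between the pair was 0.67 on total counts and 0.36 to 0.72 on leaving out a pool, against 0.49 to 0.64 in the inputs. In the ratio it was −0.036 to 0.39, the lowest without pool 6 of no odour. Counts of 27 to 179 in a library limit what can be said of Olfr1016.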
